A study of Mus musculus with 2 samples.

Results

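The 8 mouse genes that encode troponin subunits were followed through long-read RNA sequencing of heart tissue: Tnnc1 and Tnnc2 for troponin C, Tnni1, Tnni2 and Tnni3 for troponin I, and Tnnt1, Tnnt2 and Tnnt3 for troponin T. They were chosen by name, and every transcript model that the deposited tables assign to them was used. Of the 8 genes 6 had counts in replicate 1 and the same 6 in replicate 2, among 16269 reference genes with a count in either library. They were represented by 131 of the 91308 models of replicate 1 and 120 of the 96944 models of replicate 2. The series holds 1 group of 2 libraries, replicate 1 and replicate 2, both from the heart of male B6CASTF1/J mice aged 14 days, which are first-generation offspring of C57BL/6J and the wild-derived CAST, with no treatment named. The labels give both libraries 1 donor identifier and speak of 3 males for each tissue sample. One label numbers the tissue samples differently and another names 1 tissue sample and the same cDNAs for both, so whether the libraries share animals is not settled by the labels. There is no second condition. The p-values of the binomial and Fisher tests below compare these 2 libraries on counting error alone, and those of edgeR also use a spread estimated from the same 2 libraries.

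Troponin sits on the thin filament of striated muscle and makes contraction depend on calcium. Troponin C binds calcium, troponin I holds back the interaction of actin with myosin, and troponin T fastens the complex to tropomyosin. Each subunit has separate genes for different muscle types: Tnnc1 serves heart and slow skeletal muscle and Tnnc2 fast muscle, Tnni3 and Tnnt2 are the cardiac forms, Tnni1 and Tnnt1 the slow skeletal forms and Tnni2 and Tnnt3 the fast forms. In rodent hearts Tnni1 is the fetal troponin I and is replaced by Tnni3 around and after birth. Troponin T transcripts are known for alternative splicing of very short exons near the 5′ end.

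The counts on reference genes, 1059016 for replicate 1 and 1064679 for replicate 2, were the totals to which levels were scaled as CPM (a share of the total, per 1e6 counts). A single count equals 0.944 CPM in replicate 1 and 0.939 CPM in replicate 2. The tissue label was met by its markers: the 10 cardiomyocyte markers summed to 44824 CPM in replicate 1 and 46298 CPM in replicate 2, with none at 0. Some of them differed between the libraries in the test described below, in both directions. Myl2 and Pln were higher in replicate 1 (log2 ratios 0.26 and 0.31). Myh6 and Actc1 were lower (-0.15 and -0.09), and the other 6 did not pass. Of 14 skeletal muscle markers 8 were at 0 in both libraries (Myh1, Myh2, Myh4, Myh8, Actn3, Mybpc1, Pvalb and Ryr1), and the list summed to 68.0 and 71.4 CPM, with Myl1, Mybpc2 and Casq1 holding most of it. The libraries differed in 8 atrial markers, which summed to 5046 CPM in replicate 1 and 1353 CPM in replicate 2. Nppa held most of that sum. Of the 8, 5 passed the test described below, which 3.26% of all genes passed: Nppa, Myl7, Myl4, Sln and Dkk3, all higher in replicate 1. The log2 ratios of Nr2f2 (-0.47) and Kcna5 (-0.46) had the opposite sign and did not pass, and none of the 8 was at 0. The 4 red blood cell markers summed to 14964 and 11116 CPM, with 3 higher in replicate 1 (Hba-a1, Hbb-bs and Hbb-bt) and none at 0. The part of these differences in the troponin values was not tested.

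All troponin C counts were on Tnnc1 (ENSMUSG00000091898.8, chr14:31208312-31211729, plus strand, mm10). Tnnc1 had 8409 counts in replicate 1 and 7304 in replicate 2, which is 7400.3 ± 764 CPM (SD, n = 2) and place 10 among all detected genes. Tnnc2 (chr2:164777161-164779967) had no count in either library. With 0 counts for Tnnc2, a Tnnc2 share of the troponin C counts of up to 0.0357% in replicate 1 and 0.0411% in replicate 2 is allowed by a floor of 3 counts.

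The cardiac genes led the other subunits. Tnni3 (ENSMUSG00000035458.15, chr7:4518305-4524229, minus strand) had 495 and 363 counts, or 404 ± 89.4 CPM. Tnnt2 (ENSMUSG00000026414.13, chr1:135836354-135852260, plus strand) had 249 and 215 counts, or 219 ± 23.5 CPM. The slow skeletal and fetal form Tnni1 (ENSMUSG00000026418.16, chr1:135779434-135810989, plus strand) had 43 and 31 counts, or 34.9 ± 8.12 CPM. The slow skeletal form Tnnt1 (ENSMUSG00000064179.13, chr7:4504570-4516382, minus strand) had 35 and 16 counts, or 24.0 ± 12.7 CPM. Both slow forms were thus detected in both libraries, well below the cardiac form of the same subunit. The fast form Tnni2 (ENSMUSG00000031097.15, chr7:142441808-142444410, plus strand) had 3 and 6 counts, at the limit of detection, and Tnnt3 (chr7:142498836-142516009) had none in either library. A troponin I gene lies near a troponin T gene in each of 3 places. Tnni1 lies near Tnnt2 on chromosome 1, and Tnni3 near Tnnt1 and Tnni2 near Tnnt3 on chromosome 7.

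**Figure D1:**
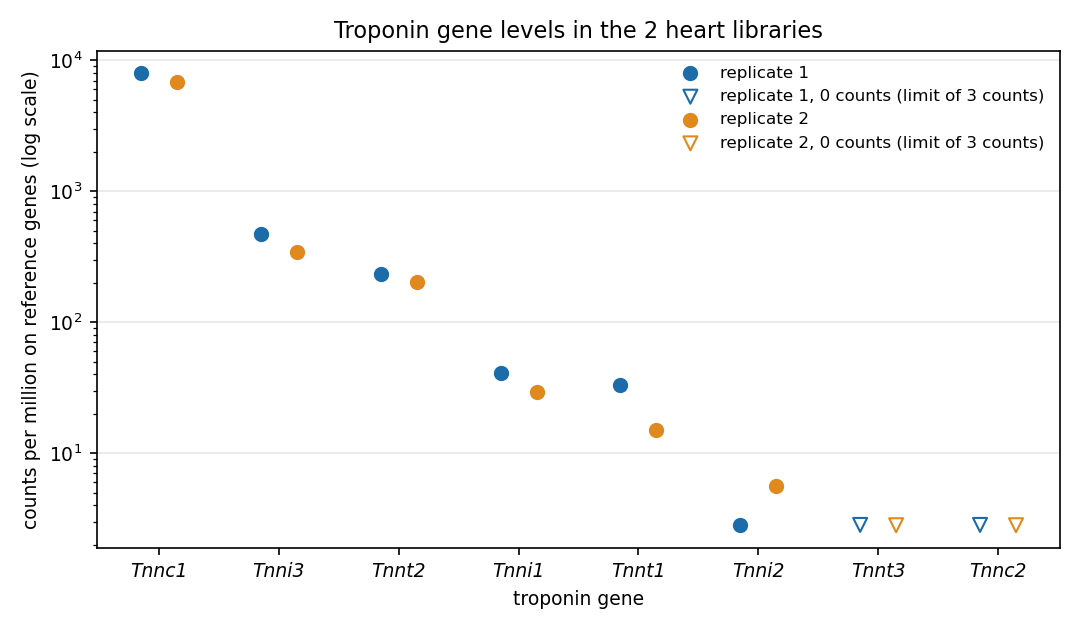
Level of each troponin gene in replicate 1 (blue, left) and replicate 2 (orange, right), in CPM on a log axis, 1 point per library. Open triangles mark genes with 0 counts, drawn at the level of 3 counts, 2.83 CPM in replicate 1 and 2.82 CPM in replicate 2. Tnnc1 lay far above the other genes in both libraries, and Tnnt3 and Tnnc2 had no counts.

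As a second scale, CPM was divided by transcript length in kilobases. The counts are per transcript model from long reads. Whether they rise with transcript length was not tested, so CPM stays the measure of level and this scale only checks the order. With the longest protein-coding reference transcript of each gene, the level per kilobase was 10264 ± 1059 CPM for Tnnc1, 443 ± 98.1 CPM for Tnni3, 182 ± 19.6 CPM for Tnnt2, 30.3 ± 7.06 CPM for Tnni1, 22.7 ± 12.0 CPM for Tnnt1 and 5.51 ± 2.58 CPM for Tnni2 (SD, n = 2 each). The order of the 6 genes was the same by CPM and by CPM per kilobase. Tnni1 and Tnnt1 did not differ beyond their spread, since Tnni1 had 40.6 and 29.1 CPM and Tnnt1 33.0 and 15.03 CPM. The other neighbours in the order did not overlap. Fewer cells of a type and less RNA per cell cannot be told apart in these tissue libraries. Aligner and filters before counting are not given, so whether reads of each gene were counted equally well was not tested.

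Between the libraries, 2 of the 5 troponin genes with at least 10 counts, Tnnc1 and Tnni3, differed by more than counting error, and both were higher in replicate 1. The log2 ratio of replicate 1 over replicate 2 (on CPM plus 1) was 0.21 for Tnnc1 and 0.45 for Tnni3, with adjusted p of 2.39e-17 and 0.000354 in a two-sided exact binomial test, Benjamini-Hochberg adjusted over 10162 genes. Of all genes tested 3.26% passed, and the median log2 ratio was -0.08. With a summed count of at least 50 required, 331 of 5446 genes passed. The test passes smaller ratios in genes with more counts, so these shares are not matched to the level of Tnnc1. Tnnt1 had a log2 ratio of 1.09 (adjusted p = 0.151), Tnni1 0.47 (adjusted p = 0.663) and Tnnt2 0.22 (adjusted p = 0.567), and none of these passed. Short transcripts as a class were higher in replicate 1: among 498 genes of at most 750 bases the median log2 ratio was 0.27, and 80 passed upward against 3 downward. Tnnc1 has a dominant transcript of 721 bases. With a trend on length removed Tnnc1 lay at 0.01 (adjusted p = 0.988) and Tnni3 at 0.15 (adjusted p = 0.723), and neither passed. The Tnni3 value used the 514 bases of Tnni3-204, which held few of its counts. With the longest coding transcript in its place, chosen after the data were seen, Tnni3 lay at 0.29 (adjusted p = 0.115) and Tnnc1 at -0.038 (adjusted p = 0.656). In edgeR's exact test, with a common dispersion estimated by taking both libraries as 1 group, the adjusted p was 1 for both, and 22 of the 10162 genes passed, against 331 in the binomial test. Among models with a reference identifier alone, where few Tnni3 counts remained, Tnni3 did not pass (0.39, adjusted p = 0.768).

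The share of the slow form among its pair was much alike in the 2 libraries for troponin I. Tnni1 made up 7.99% of the Tnni1 and Tnni3 counts in replicate 1 (95% Clopper-Pearson interval 5.84 to 10.6) and 7.87% in replicate 2 (5.41 to 11.0). Tnnt1 made up 12.3% of the Tnnt1 and Tnnt2 counts in replicate 1 (8.74 to 16.7) and 6.93% in replicate 2 (4.01 to 11.0), and Fisher's exact test gave p = 0.0531, or 0.265 adjusted over 5 pairs. This share rests largely on 1 model of 3 exons that begins within an intron of the longer transcripts. That model held 24 of the 35 Tnnt1 counts in replicate 1 and 8 of the 16 in replicate 2. The share without that model was not tested. Tnni2 made up 0.602% and 1.63% of the Tnni2 and Tnni3 counts (adjusted exact p = 0.452). Tnnt3 had no count, which allows up to 1.20% and 1.40% of the Tnnt3 and Tnnt2 counts. Of the 5 pairs, the 2 with Tnnc2 and Tnnt3 had no count of that gene and could not pass, and none of the other 3 passed.

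The genes differed sharply in how far their counts fell on annotated transcripts. Per the file headers each model has a novelty class: Known for a reference transcript, ISM for a chain of introns that is part of a reference chain, NIC for a new combination of known splice sites, NNC for a model with a new splice site, and Genomic for the remainder. These are the usual meanings of the names. The deposited labels were used as given, and some troponin models labelled ISM or NIC held splice sites that are not in the reference annotation. Known transcripts held 98.2% of the Tnnc1 counts in replicate 1 and 98.4% in replicate 2, nearly all on Tnnc1-202 (8216 and 7148 counts). For Tnni3 they held 7.47% and 7.71%, and for Tnnt2, Tnni1, Tnnt1 and Tnni2 they held 0 counts in both libraries. Over all reference genes Known transcripts held 80.7% and 80.4%. Among 5693 genes with at least 20 counts in each library, 94 (1.65%) had no count on a Known transcript, and Tnnt2 and Tnni1 were among them. The median gene had 15.8% and 15.2% of its counts on models without a reference identifier.

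**Figure D2:**
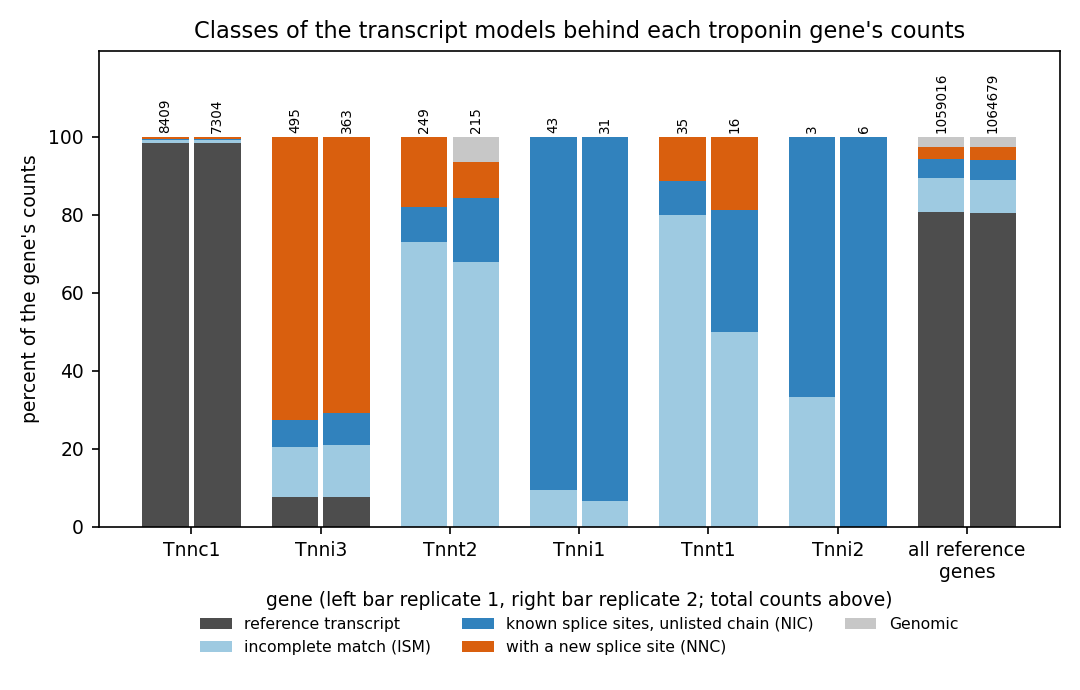
Percent of each gene's counts by the class of the transcript model, with replicate 1 as the left bar, replicate 2 as the right bar and the gene's total counts above. Tnnc1 was 98.2% and 98.4% reference transcript, whereas the troponin I and troponin T genes were made up mostly or wholly of unannotated models, against 80.7% and 80.4% reference transcript over all genes.

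The shares were close in the 2 libraries. The share of counts on unannotated models was 1.76% and 1.62% for Tnnc1, 92.5% and 92.3% for Tnni3, and 100% in both for Tnnt2 and Tnni1. Tnnc1 and Tnni3 did not pass Fisher's exact test (adjusted p = 1 for each), where 0.193% of the genes tested passed. Tnnt2 and Tnni1, with every count on an unannotated model in both libraries, could not pass. The dominant annotated transcript could be tested in 2 genes. Tnnc1-202 took 99.5% of the annotated Tnnc1 counts in each library. The other annotated Tnnc1 counts lay mainly on Tnnc1-203, a nonsense-mediated decay transcript with 45 and 36 counts. Tnni3-204, a retained-intron transcript, took 78.4% (29 of 37 counts) and 85.7% (24 of 28 counts) of the annotated Tnni3 counts, and the rest, 8 and 4 counts, lay on Tnni3-202, another retained-intron transcript. Neither gene passed (adjusted p = 1 for each), where 0.038% of 2633 genes did. No protein-coding reference transcript of Tnni3, Tnnt2, Tnni1, Tnnt1 or Tnni2 had a count in either library.

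The annotation of Tnnc1 differs from that of the troponin I and troponin T genes in exon length. The shortest internal exon of Tnnc1 has 31 bases. Each troponin I and troponin T gene has at least 1 internal exon of 15 bases or fewer, a limit chosen after the data were seen, and 57 of the 63 protein-coding transcripts of the 8 genes contain such an exon. The sequences below show these short exons in capitals within the coding bases that flank them in the reference transcript, read 5′ to 3′ from the GENCODE M21 transcripts (mm10). They are shown because, with 1 count excepted, no counted model holds any of them as an exon with its annotated ends. The Tnni3 stretch spans chr7:4521873-4522315 (minus strand), Tnni1 chr1:135802613-135805082 (plus), Tnni2 chr7:142442491-142443200 (plus) and Tnnt1 chr7:4513811-4514366 (minus). The first 3 begin at the start codon.
Tnni3-201, exon of 13 bases: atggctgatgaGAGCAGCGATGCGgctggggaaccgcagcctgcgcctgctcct
Tnni1-207, exon of 4 bases: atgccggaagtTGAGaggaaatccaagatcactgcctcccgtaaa
Tnni2-201, exon of 7 bases: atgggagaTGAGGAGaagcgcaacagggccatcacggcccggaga
Tnnt1-201, exon of 14 bases: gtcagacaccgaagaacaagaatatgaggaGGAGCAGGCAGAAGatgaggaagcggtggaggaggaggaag

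The cardiac troponin T gene has 6 such exons, several of them alternative. In Tnnt2-209 exons of 11 bases and 12 bases are followed by the exon of 30 bases that is known as the developmentally regulated exon of cardiac troponin T, included in the embryonic heart and skipped in the adult one. The stretches below lie on the plus strand of chromosome 1, at chr1:135840883-135842026, chr1:135841901-135843814, chr1:135842015-135845584 and chr1:135849431-135850740. Flanking bases include the neighbouring short exons, and the last line shows an exon of 9 bases in the 3′ part of the gene.
Tnnt2-209, exon of 11 bases: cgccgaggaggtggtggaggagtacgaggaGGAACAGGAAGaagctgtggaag
Tnnt2-209, exon of 12 bases: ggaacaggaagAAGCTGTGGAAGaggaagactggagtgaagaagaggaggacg
Tnnt2-209, exon of 30 bases: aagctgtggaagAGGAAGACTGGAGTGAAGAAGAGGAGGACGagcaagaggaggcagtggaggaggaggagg
Tnnt2-201, exon of 9 bases: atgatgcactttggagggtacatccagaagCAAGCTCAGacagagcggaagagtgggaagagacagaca

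The 8 genes have 16 annotated internal exons of at most 15 bases, 5 of them in Tnnt3, which had no counts. Of the 11 in genes with counts, 1 was included with its annotated ends, and there by 1 count. That count was a Tnni3 fragment of replicate 2 that began with the exon of 13 bases. The exon was included in 0 of 337 spanning counts in replicate 1 and 1 of 229 in replicate 2. The exon of 4 bases in Tnni1 was included in 0 of 42 and 0 of 30 spanning counts, although all 6 coding transcripts that span it contain it. In Tnnt2 the exons of 11 bases and 12 bases were included in 0 of 59 and 0 of 47 spanning counts and the exon of 9 bases in 0 of 164 and 0 of 144. In Tnnt1 the exon of 14 bases was included in 0 of 9 and 0 of 8 spanning counts, and in Tnni2 the exon of 7 bases in 0 of 2 and 0 of 6. The exon of 30 bases in Tnnt2 was included in 0 of 59 and 0 of 46 spanning counts, which allows up to 5.08% and 6.52% at a floor of 3 counts. It lay within a longer exon in 1 count of replicate 1 and 5 counts of replicate 2. The bases of the Tnni3 exon of 13 bases lay within a longer exon in 54 and 52 counts, and those of the Tnnt2 exon of 9 bases in 57 and 46 counts.

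Short exons of other genes were also rarely included. Over all genes, 16 internal exons of at most 15 bases are present in every coding transcript that spans them and had at least 20 spanning counts over both libraries, and 15 of them (93.8%) were included in no counted model. The exon of 4 bases in Tnni1 is 1 of these 16. For 25 exons of 16 to 20 bases the median inclusion was 91.3%, for 286 exons of 21 to 30 bases it was 99.8%, and for longer classes it was 100%. The 19 coding genes with at least 20 counts in each library and an exon of at most 15 bases in all spanning coding transcripts had a median of 100% of their counts on unannotated models in both libraries. The other 5550 coding genes had medians of 16.03% and 15.4%. A spanning model that lacks such an exon cannot match a coding reference transcript that holds it. The share is therefore not independent of the inclusion above. Of the troponin genes covered, 1 is among the 19 genes and 3 are among the 5550. The models are the authors' exon structures on the genome, and whether the reads behind them carry the bases of the short exons was not tested.

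**Figure D3:**
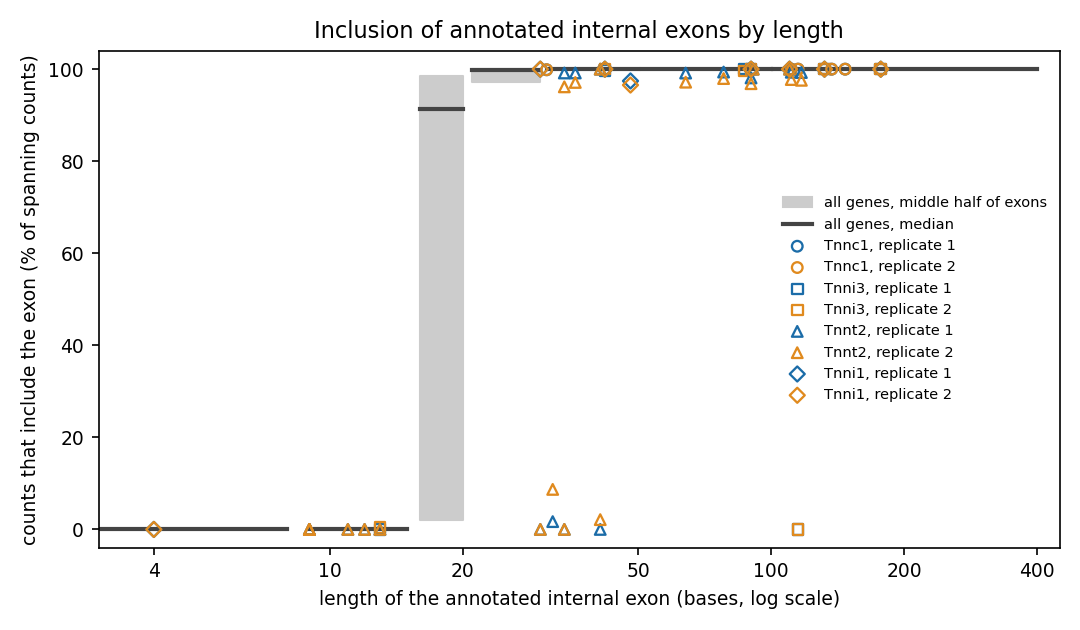
Percent of spanning counts that include an annotated internal exon, against exon length in bases on a log axis. Grey bands and black lines give the middle part (25th to 75th percentile) and the median of exons that all spanning coding transcripts contain, over all genes. Symbols are exons of Tnnc1, Tnni3, Tnnt2 and Tnni1 with at least 20 spanning counts over both libraries together, blue for replicate 1 and orange for replicate 2. Exons that only some transcripts contain are included, and exons of Tnnt1 and Tnni2 are not drawn. Troponin exons of at most 15 bases lay at or near 0, and longer ones lay near 100% apart from a few that only some transcripts contain, which lay under 10%.

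Tnni3 showed what the models hold in place of its short exon. The reference joins the 11 coding bases of the first exon to the exon of 13 bases and then to the exon at chr7:4521816-4521902. Of 390 counts in replicate 1 and 279 in replicate 2 that cover both flanking exons, none had exactly those 13 bases between them. The leading model, with 213 and 148 counts (43.0% and 40.8% of all Tnni3 counts), lengthened the first exon by 4 bases into the intron, to 4522301, and skipped the short exon. A model with 46 and 47 counts kept the start of the short exon and ran 24 bases past its end, which gave an exon of 37 bases at chr7:4522046-4522082. A model with 51 and 34 counts lengthened the first exon by 14 bases, and a model with 29 and 20 counts began the downstream exon 16 bases early. The short exon was skipped with neither neighbour altered in only 2 and 2 counts. The lines below give the 4 models from the start codon on, with the bases between the flanking reference exons in capitals.
Model with 213 and 148 counts: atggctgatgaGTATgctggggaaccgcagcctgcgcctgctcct
Model with 46 and 47 counts: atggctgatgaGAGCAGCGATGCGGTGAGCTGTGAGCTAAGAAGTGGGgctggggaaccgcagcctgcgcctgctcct
Model with 51 and 34 counts: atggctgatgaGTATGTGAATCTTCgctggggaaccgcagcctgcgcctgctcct
Model with 29 and 20 counts: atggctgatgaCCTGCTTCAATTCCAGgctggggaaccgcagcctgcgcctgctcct

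These models differed in the reading frame they gave. The exon of 13 bases leaves a remainder of 1 when divided by 3, and the stretches of 4, 37 and 16 bases leave the same remainder. Read on the reference bases, the models with 4, 37 and 16 bases reached the annotated stop codon after 208, 219 and 212 codons, against 211 codons in Tnni3-201. The model with 14 bases met a stop after 40 codons. Over all Tnni3 counts on models with the start codon, 307 of 391 in replicate 1 (78.5%) and 220 of 280 in replicate 2 (78.6%) reached the annotated stop. The inclusion of the exon of 37 bases was 12.5% in replicate 1 (48 including and 337 skipping counts) and 17.4% in replicate 2 (48 and 228), which did not pass Fisher's exact test (p = 0.0928, adjusted p = 1). When skipping was counted only between splice sites that including models also use, its mean inclusion was 96%. That setting leaves out skipping models with a lengthened neighbouring exon, among them the leading model with 213 and 148 counts.

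**Figure D4:**
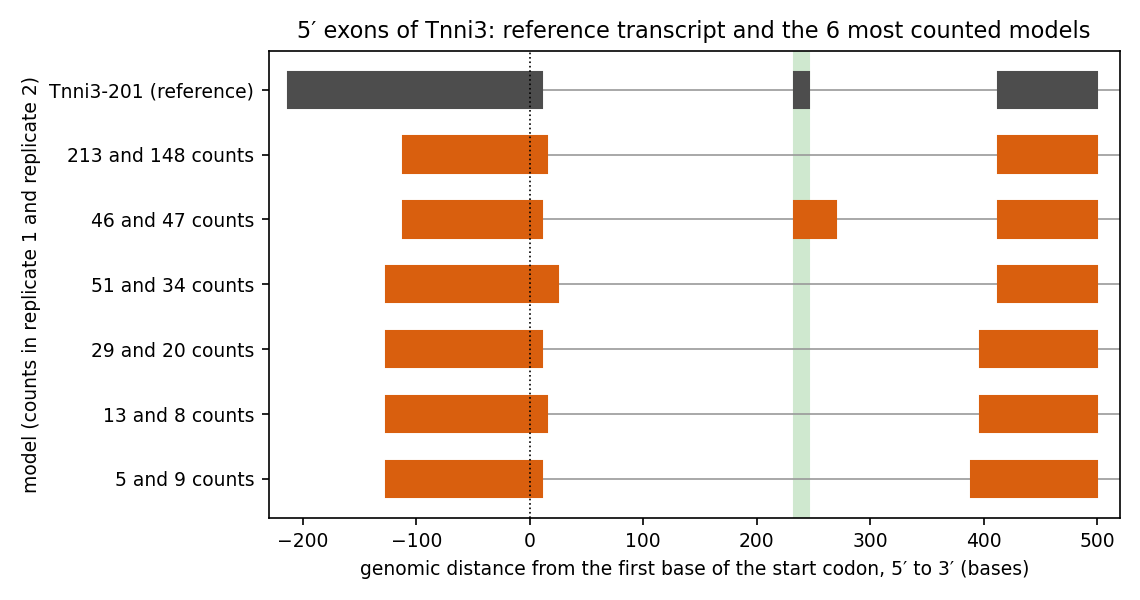
Exons at the 5′ end of Tnni3 in the reference transcript (grey) and in the 6 most counted unannotated models with the start codon (orange), drawn to scale by genomic distance in bases from the start codon (dotted line). The counts of replicate 1 and replicate 2 stand at the left, and the green band marks the annotated exon of 13 bases. The models lengthened the first exon or the downstream exon, or ran past the end of the short exon.

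In the other genes the short exons were skipped with or without a change at the neighbouring splice sites. In Tnni1 the leading model, with 37 and 28 counts (86.0% and 90.3%), was the reference chain without the exon of 4 bases and with no other splice site altered, and its frame met a stop after 16 codons, against 187 in Tnni1-207. All 42 and 30 Tnni1 counts that cover the region skipped the exon in this way. The single multi-exon model of Tnni2, with 2 and 6 counts, likewise lacked the exon of 7 bases and met a stop after 15 codons. In Tnnt2 the exon with the start codon was lengthened by 4 bases at its 3′ end, to chr1:135840861-135840916, an exon of 56 bases. It was an internal exon in 44 counts of replicate 1 and 29 of replicate 2, of the 57 and 46 counts on models with the start codon, and most of the others had that exon with different ends. Where an intron spans its place it counts as skipped, in 3 and 2 counts. Between that exon and the exon that starts at 135845555 the 12 coding reference transcripts hold 11 to 53 bases, all with a remainder of 2 when divided by 3. The counted models held 4 bases there in 44 of 53 and 33 of 43 counts, which leaves a remainder of 1. In Tnnt1 all 9 and 8 counts that cover the region held 12 bases in place of the reference 14 bases.

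The frame at the short exons differed between the genes. Shares were taken of the counts that cover both flanking exons. The bases between these exons had a remainder found in the reference in 79.5% and 79.6% for Tnni3 (310 of 390 and 222 of 279 counts). For Tnnt2 the share was 7.55% and 4.65% (4 of 53 and 2 of 43 counts). It was 0 for Tnni1 (42 and 30 counts), Tnnt1 (9 and 8 counts) and Tnni2 (2 and 6 counts). These are properties of the models, and no protein was measured.

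Most counts on unannotated models were on chains found in both libraries. By chromosome, strand and every intron, 68 multi-exon chains of the 6 genes were shared, which is 55.7% of those of replicate 1 and 61.3% of those of replicate 2. Over all reference genes 37.4% and 34.9% of such chains were shared. The shared chains held 91.7% of the counts on such models in replicate 1 and 93.3% in replicate 2, against 75.9% and 74.0% over all reference genes. Among models with at least 5 counts the difference was smaller, at 95.01% and 96.98% against 92.63% and 90.74% over all reference genes. Whether the sharing is particular to the troponin genes was not tested. Of the 68 shared chains, 18 belonged to Tnnc1, 17 to Tnni3, 26 to Tnnt2, 3 to Tnni1, 3 to Tnnt1 and 1 to Tnni2. The class label differed between the libraries for 6 of the 68 (8.82%), 4 of them in Tnnt2 and 2 in Tnni3. Over all reference genes the label differed for 1351 of 20200 shared chains (6.69%). The full-length Tnnt2 chain of 13 exons was labelled NNC in replicate 1 (29 counts) and NIC in replicate 2 (16 counts). The NIC and NNC shares of Tnnt2 taken apart (8.84% and 16.3% for NIC, 18.1% and 9.30% for NNC) therefore rest partly on the label, and their sum was 26.9% and 25.6%.

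Tnnt2 models were mostly incomplete at the 5′ end. Only 57 of 249 counts (22.9%) in replicate 1 and 46 of 215 (21.4%) in replicate 2 lay on models that contain the start codon. The same share was 99.7% and 99.5% for Tnnc1, 79.0% and 77.1% for Tnni3, 97.7% and 96.8% for Tnni1, and 25.7% and 50% for Tnnt1, where it rests on 9 and 8 counts. The leading Tnnt2 model, an ISM of 11 exons with 43 and 43 counts, began at 135845555, the first base of the exon that follows the cluster of short exons. Models that start at that base held 19.3% and 23.3% of the Tnnt2 counts. In all, 112 of the 249 Tnnt2 counts in replicate 1 and 98 of the 215 in replicate 2 were on models that start exactly where an internal reference exon starts, against 2.83% and 3.31% for Tnni3 and 0.250% and 0.123% for Tnnc1. The 5′ end is that of the model and not of each read.

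**Figure D5:**
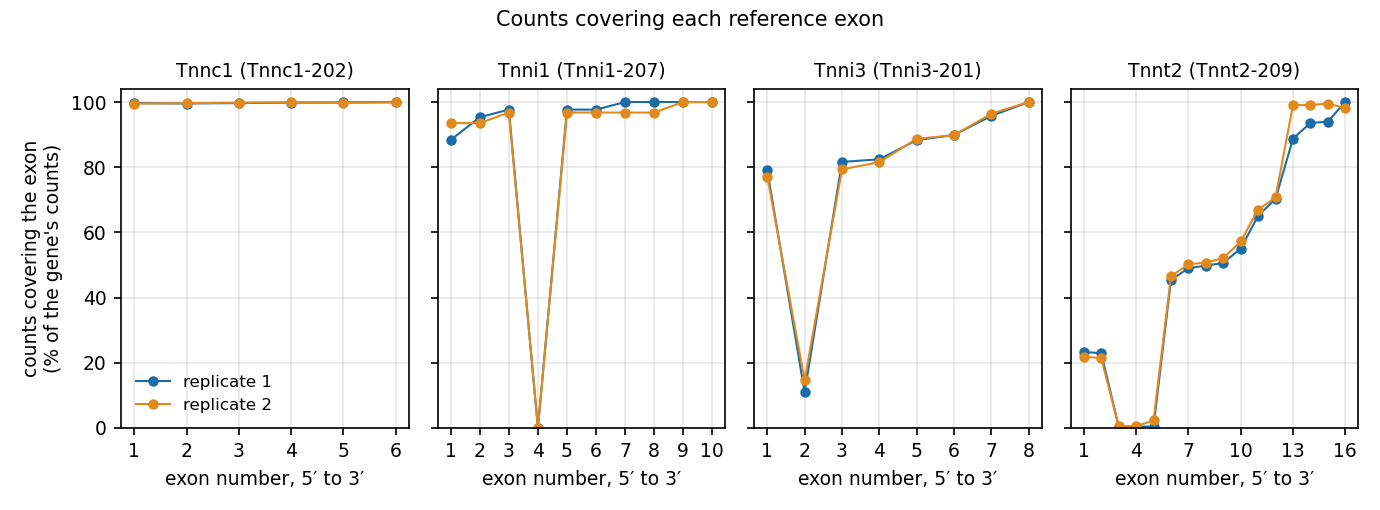
Percent of a gene's counts whose model covers the midpoint of each reference exon, numbered 5′ to 3′, for Tnnc1, Tnni1, Tnni3 and Tnnt2, blue for replicate 1 and orange for replicate 2. Coverage of Tnnc1 was flat near 100%. Tnni1 dropped to 0 at its exon of 4 bases, Tnni3 dropped to 10.9% and 14.6% at exon 2 and otherwise declined towards the 5′ end, and Tnnt2 declined from the 3′ end to 45.4% and 46.5% at exon 6, was between 0.402% and 2.33% at exons 3 to 5, and was 23.3% and 21.9% at exon 1.

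Shorter models made up most of the remaining shared counts. In Tnnt2 ISM models of 6 exons (22 and 18 counts) and 7 exons (11 and 11 counts) began at 135848811 and 135847981, the first bases of 2 other internal exons. In Tnni3 an ISM of 4 exons had 28 and 23 counts and began inside the exon at chr7:4520963-4521094. In Tnnt1 the longest shared models, of 13 exons (2 and 1 counts) and 12 exons (1 and 4 counts), both lacked 2 short exons. In Tnni1 the other shared models, with 3 and 1 counts and 1 and 1 counts, also lacked the exon of 4 bases. The unannotated Tnnc1 models were few beside its 8409 and 7304 counts, and the leading pair, with 23 and 20 counts and 20 and 15 counts, retained 1 and 2 introns at the 5′ end.

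Intron-retaining models took up another part of the Tnnt2 counts. A model of 4 exons with 39 and 36 counts began at 135849450 inside an exon and ran without a splice to 135850820, through the exon of 9 bases. Over all Tnnt2 models, an intron of a coding reference transcript lay inside an exon in 71 counts of replicate 1 (28.5%) and 71 of replicate 2 (33.0%). In Tnni3 the same held for 6 and 5 counts (1.21% and 1.38%). Unspliced models of the Tnnt2 3′ end differed between the libraries. An ISM model of the last exon alone had 15 and 0 counts, and a Genomic model of chr1:135850657-135852260 had 0 and 14 counts, and these were not tested. In Tnnt1 the leading model, with 24 and 8 counts, had 3 exons, and its first exon, at chr7:4507522-4508025, began within an intron of the longer transcripts.

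Of the internal troponin exons 17 had at least 20 informative counts in each library and both forms present, and 0 passed Fisher's exact test for a difference in inclusion between the libraries. None had an unadjusted p under 0.05. Over all genes the share that passed was 0% of 13062 exons, with 191 at an unadjusted p under 0.05. The 6 tested Tnnt2 exons from 135845898 to 135849460 were included at 96.2% to 99.3% in both libraries, among them the exon of 34 bases at chr1:135846722-135846755 (99.2% and 96.2%). The exon of 90 bases before them, which starts at 135845555, was included as an internal exon of the model at 96.5% and 93.3%. With models that start at this exon counted as well, its inclusion was 98.1% and 96.8%. In Tnni1 the exon of 48 bases at chr1:135799973-135800020 was included at 97.4% and 96.6%, and in Tnni3 the downstream exon was lengthened by 16 bases in 48 and 30 counts, against 331 and 238 counts with its annotated ends, each as an internal exon. The rarely included Tnnt2 exons of 53 bases at chr1:135838127-135838179 and 41 bases at chr1:135843774-135843814, were each included by 0 counts in replicate 1 and 1 in replicate 2 (2.33% and 2.13%). An alternative exon of Tnnt2 of 32 bases at chr1:135838148-135838179 was included in 1.69% (1 of 59 counts) and 8.70% (4 of 46).

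Genes that work with troponin were taken from 4 lists. The list of thin filament partners also holds Mybphl and Mybpc3, which encode myosin-binding proteins. Of its 14 tested genes 1 was higher in replicate 1, Mybphl (log2 ratio 1.96, adjusted p = 1.88e-12 in the exact binomial test). In the same test 3 were lower in replicate 1, the tropomyosin Tpm4 (-0.57, adjusted p = 5.94e-05) and the actins Acta1 (-0.31, adjusted p = 0.00405) and Actc1 (-0.09, adjusted p = 0.0133). Thus 4 of the 14 passed, where 3.26% of all genes did. With a summed count of at least 50 required, 331 of 5446 genes passed. The test holds counting error only and passes smaller ratios in genes with more counts. These shares are not matched for level, so no excess in the list is read from them. The cardiac tropomyosin gene Tpm1, at 17622 and 17712 CPM, did not pass (adjusted p = 0.957). The median over this list was -0.08, equal to that of all genes tested. Of 16 kinases and phosphatases known to act on troponin subunits 1 passed, the phosphatase subunit Ppp2ca, which was lower in replicate 1 (-0.28, adjusted p = 0.0484). The catalytic subunit of protein kinase A, Prkaca, which phosphorylates troponin I in heart, had 870 and 985 CPM (adjusted p = 0.131), and Ppp1ca had 712 and 672 CPM (adjusted p = 0.774). None of 14 splicing factors passed, and the 3 with the highest levels were Rbm24 at 284 and 288 CPM, Qk at 250.2 and 282 CPM and Mbnl2 at 193 and 196 CPM. None of 11 tested transcription factors passed, with Nkx2-5 at 187.0 and 186.9 CPM, Gata4 at 116 and 139 CPM and Gata6 at 105 and 108 CPM, and the skeletal muscle factors Myod1 and Myog had no counts.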

How the data were processed

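Long-read RNA sequencing reads were counted per transcript model by the authors, and the deposited values are whole-number counts of 1 library each, not normalized and listed from 1 count upward. Per the file headers and notes, models are on mm10 with the GENCODE M21 annotation, and unannotated models carry the source name TALON. Aligner, filters and treatment of strand were not given in the sources used here. All 85 reference transcripts of the members had the same exons in the files and in the M21 annotation used for sequences.

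The libraries held 1107678 counts in replicate 1 and 1110707 in replicate 2, of which 95.6% and 95.9% were on reference genes. Counts were summed per gene, and totals on reference genes set CPM. Replicates were the 2 libraries of 1 group. Gene counts were tested by an exact binomial test (genes with a summed count of at least 10), and shares by Fisher's exact test (at least 20 counts in each library), two-sided, with Benjamini-Hochberg adjustment over all features tested and a threshold of 0.05. Intervals are 95% Clopper-Pearson. No molecular identifiers are named, so a count need not be a separate molecule, and intervals and the floor of 3 counts cover counting error only. Models were matched by intron chain. An exon was included where a model holds its exact ends and skipped where an intron spans it. In the tests of inclusion between the libraries the exon also had to be internal to the model.

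Members, lists and tests were chosen with earlier results of these data known. The text names all members, annotated transcripts with at least 1% of a gene's counts, up to 5 unannotated chains per gene, exons included at 2% to 98%, and, from each list of partner and regulator genes, the leading 3 genes and those that passed. Python 3.11.15, scipy 1.17.1, statsmodels 0.14.6, edgeR 4.0.16 and DESeq2 1.42.0 were used, the last for size factors alone, as an alternative. The other alternatives were TMM scaling, other minimum counts, pseudocounts and matching rules.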

Additional observations from a re-analysis of the deposited data

Results flagged for a closer look

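Models assigned to new genes on the strand opposite to Tnnt2 carried counts that the gene values above do not hold. A single-exon model at chr1:135849741-135850379 on the minus strand, 639 bases long, had 176 counts in replicate 1 and 127 in replicate 2, equal to 70.7% and 59.1% of the Tnnt2 counts. It held the ninth place by count among 8621 antisense models in replicate 1 and among 9490 in replicate 2, where the median antisense model had 1 count. Its 5′ end on the minus strand is at the first base of the Tnnt2 exon of 9 bases. The model lies within the stretch that the intron-retaining Tnnt2 model reads on the plus strand. A model of 2 exons from 135838909 to 135843072 in replicate 1 and to 135843076 in replicate 2 had 9 and 5 counts, and an unspliced model over that stretch had 4 counts in replicate 2. The treatment of strand in the counting is not given in the sources used here, so whether these counts come from RNA of the opposite strand was not tested.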

How the results depend on the processing

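The number of troponin genes past the threshold between the libraries was 2, and it fell to 1 on models with a reference identifier alone and to 0 with a length trend removed, by the dominant transcript or, in a setting chosen after the data were seen, by the longest coding transcript, and to 0 in edgeR's exact test with a common dispersion. With the longest coding transcript Tnnc1 changed sign, at -0.038 on the log2 scale, with an adjusted p of 0.656, and Tnni3 lay at 0.29 with an adjusted p of 0.115. The remaining scalings, minimum counts and pseudocounts left the number at 2. On models with a reference identifier alone, the mean level was 9031.8 CPM for Tnnc1, 38.0 CPM for Tnni3 and 0 for Tnni1, Tnnt2 and Tnnt1. The 68 shared chains fell to 40 with at least 2 counts per model, to 24 with at least 5 and to 45 without ISM models. No troponin share, exon or paralog pair that could be tested crossed the threshold under the alternatives run, but the 17 troponin exons tested fell to 10 with at least 50 informative counts, 9 with models of at least 2 counts, 5 with skipping between shared splice sites and 0 on reference models. With 2 libraries, leaving out 1 gives the value of the other and is no check of stability. Tnnt1 was 33.0 CPM from replicate 1 alone and 15.03 CPM from replicate 2 alone. Short-exon inclusion of 1 count stayed at 1 with a limit of 20 bases, was 0 at 10 bases and 98 at 30 bases. No paired analysis was possible because there is 1 group. Depth limits the account of Tnni2, Tnnt3 and Tnnc2.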
